A study of Mus musculus with 10 samples.

Results

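The 10 genes described here, Ina, Nefl, Nefm, Prph, Stmn2, Tubb3, Uchl1, Gap43, Elavl4 and Mapt, encode parts of the neuronal cytoskeleton and proteins of growing axons. They were taken by name, as every probe set whose only platform gene symbol is 1 of the 10, which gave 22 probe sets; the 10 are among 18193 genes measured. Their expression was measured on Affymetrix arrays in RNA of the mouse urogenital system, taken whole from embryos of day 15.5, with 5 pools of RNA for each of 2 genotypes and 1 to 2 urogenital systems labelled per pool. Embryos of the first group were Wnt9bcneo/cneo, homozygous for the cneo allele of Wnt9b, a secreted Wnt ligand of the ureteric bud; the labels do not say what the allele does to the transcript. Embryos of the other group are labelled Wnt9bcneo/+ and titled WT, and are called control here, so by the genotype label they carry 1 cneo allele too. No strain, sex or treatment is given. The comparison asks which transcripts differ between the genotypes. In whole tissue, a changed number of neurons and a changed amount of RNA per neuron cannot be told apart.

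A neuron builds its axon on microtubules and on neurofilaments, the intermediate filaments that fill and widen the axon, while the growth cone at its tip holds proteins that remodel membrane and microtubules. Sympathetic and pelvic ganglia, the chromaffin cells of the adrenal medulla and nerve fibres lie in or beside the urogenital system. All 10 transcripts are made in neuron cell bodies, and several of them are textbook markers of peripheral neurons.

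All 10 genes had higher mean intensities in homozygous pools, 7 of them by at least 2-fold, but only Ina passed the test over all genes. Of all genes 50.0% were higher and 3.85% were higher by at least 2-fold. The neurofilament genes Ina, Nefl and Nefm had the largest log2 differences, from 2.94 to 3.33, followed by Tubb3, Prph, Stmn2 and Gap43 from 2.28 to 2.73, while Uchl1, Elavl4 and Mapt lay between 0.74 and 0.88. The median over the 10 genes was 2.602, against 0.00 over all genes. In limma (Benjamini-Hochberg adjusted p under 0.05) 1 of 10 genes rose and 0.539% of all genes did (0.429% fell, and 0.967% passed in either direction); at an unadjusted p under 0.05 it was 8 of 10, against 9.83%. The control pools spread widely, as given gene by gene below, and 7 of the 10 genes had a control standard deviation (SD) among the highest 5% of all genes.

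The 250 bases before the annotated start of 4 of these genes are shown as promoter stretches. The genes are Ina, which rose, Prph and Tubb3, and Uchl1, which had a small difference. Prph and Tubb3 differed less than Ina but by at least 2-fold, and did not pass. These stretches are given below. They come from RefSeq (GRCm38.p6), run 5′ to 3′ on the gene's strand (for Prph before a transcript start inside the gene's span), and belong to 5 of the 10 genes that matched the promoter table, the fifth being Elavl4. Capitals mark every match, on either strand, to 7 short motifs: the E-box hexamers CAGCTG and CAGATG, the TATA box TATAAA, the GC box GGGCGG, the cyclic AMP response half-site TGACG, and CAGCACC and GGACAGC, which are parts of the element bound by the neuronal gene repressor REST. None of these motifs overlaps another in the 4 stretches.
Ina, chr19:47014431-47014680, plus strand: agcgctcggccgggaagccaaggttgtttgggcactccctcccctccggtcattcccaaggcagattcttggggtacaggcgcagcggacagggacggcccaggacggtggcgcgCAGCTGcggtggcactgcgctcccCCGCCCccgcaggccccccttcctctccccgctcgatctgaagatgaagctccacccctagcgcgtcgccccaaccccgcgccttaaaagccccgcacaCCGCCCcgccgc
Prph, chr15:99054924-99055173, plus strand: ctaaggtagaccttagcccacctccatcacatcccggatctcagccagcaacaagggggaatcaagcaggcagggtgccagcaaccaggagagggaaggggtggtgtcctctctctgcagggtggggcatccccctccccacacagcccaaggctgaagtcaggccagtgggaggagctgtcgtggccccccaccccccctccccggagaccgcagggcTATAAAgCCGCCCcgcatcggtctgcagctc
Tubb3, chr8:123411303-123411552, plus strand: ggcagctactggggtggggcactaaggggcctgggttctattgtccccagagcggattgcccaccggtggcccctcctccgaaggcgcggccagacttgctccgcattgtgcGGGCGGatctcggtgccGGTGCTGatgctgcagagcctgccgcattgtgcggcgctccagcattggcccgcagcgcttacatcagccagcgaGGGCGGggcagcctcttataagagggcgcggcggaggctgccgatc
Uchl1, chr5:66675871-66676120, plus strand: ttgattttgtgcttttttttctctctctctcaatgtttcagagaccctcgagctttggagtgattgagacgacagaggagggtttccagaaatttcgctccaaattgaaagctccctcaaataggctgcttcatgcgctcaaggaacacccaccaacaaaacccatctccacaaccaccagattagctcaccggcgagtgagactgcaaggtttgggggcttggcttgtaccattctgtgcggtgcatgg

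The stretches of Ina, Prph and Tubb3 each held the GC box, which is in 32.7% of 32851 windows of this length; Ina and Tubb3 held 2 matches each and Prph 1. Prph had the TATA box from base 31 to base 26 before the start (12.4% of windows hold one), Ina had CAGCTG (13% of windows) and Tubb3 had CAGCACC in reverse (5.73% of windows). None of the 7 motifs was found in the Uchl1 stretch. Their GC content was 70.8% for Ina, 68.0% for Tubb3, 65.2% for Prph and 48.8% for Uchl1, against a median of 52.4% over all windows. For Elavl4 the table holds 4 windows, of 44.0% to 53.6% GC, each with CAGATG or TGACG, which 14.4% and 17.8% of all windows hold. A match to such letters is a description of the sequence and not a binding site.

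**Figure D1:**
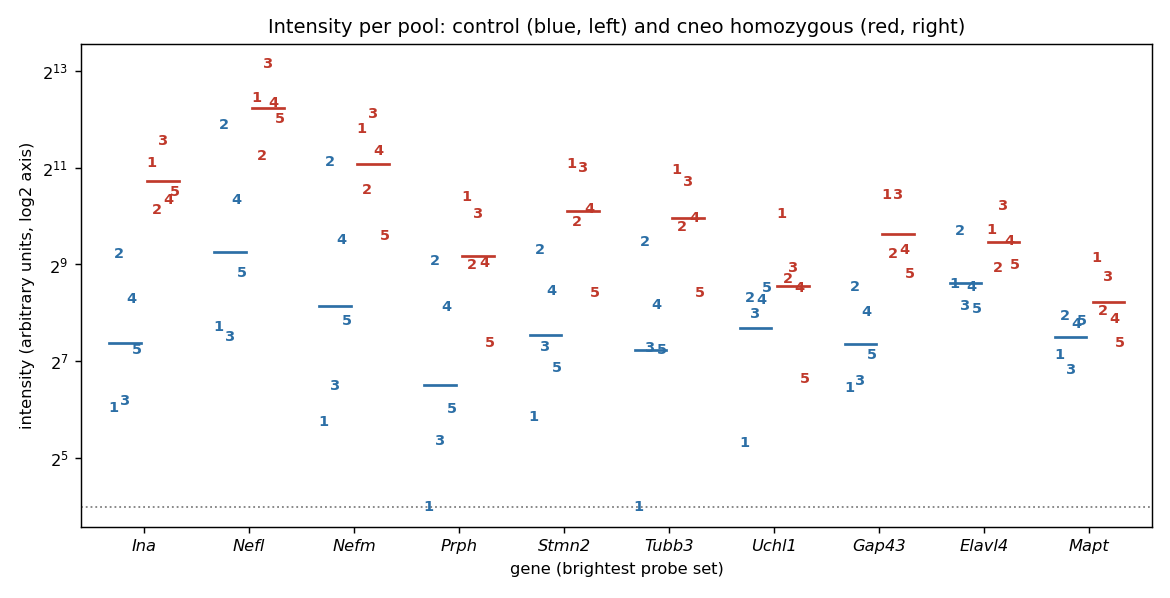
Intensity of the brightest probe set of each of the 10 genes (vertical axis, log2 spacing, arbitrary units) in every pool, with the pool's number as the symbol, control pools in blue and homozygous pools in red; bars are means of log2 values and the dotted line is the floor of 16. Only Ina and Gap43 show groups that do not overlap, and control pool 2 is the highest control pool for 9 of the 10 genes.

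Among the neurofilament and related filament genes, Ina (alpha-internexin, an early neuronal intermediate filament; chromosome 19, 47014681 to 47025327) had intensities of 2172, 1114, 3004, 1284 and 1449 in homozygous pools 1 to 5 and of 65.3, 592, 72.2, 312 and 149.6 in control pools 1 to 5. Every homozygous pool lay above every control pool, although the control pools themselves differed by 9.06-fold from lowest to highest. The log2 mean was 10.72 ± 0.59 (SD, n = 5) in homozygous and 7.38 ± 1.37 (SD, n = 5) in control pools. Ina rose by 3.33 ± 0.63 on the log2 scale (SE), 10.1-fold, with an adjusted p of 0.04999 in limma, just under the threshold, and p = 0.00794 in the exact permutation test over pools (two-sided), which no split of 10 pools into 5 and 5 can go below. Groups did not overlap for 2 of the 10 genes, Ina and Gap43, against 2.61% of all genes that were higher in this way. The call of Ina held without control pool 2 (adjusted p = 0.02005) and was lost when any other single pool was left out, with adjusted p from 0.0553 without homozygous pool 2 to 0.137 without control pool 3.

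Nefl, which encodes the light chain on which neurofilaments assemble, had intensities of 5556, 2423, 9031, 5154 and 4114 in homozygous pools 1 to 5 and of 209, 3754, 182, 1288 and 456 in control pools 1 to 5. Control pool 2 exceeded homozygous pool 2, and the other homozygous pools lay above all controls. The lowest and highest control pools were 20.6-fold apart, and the homozygous pools 3.73-fold. The log2 difference was 2.98 ± 0.83 (SE), which did not pass (limma adjusted p = 0.122; exact permutation p = 0.0159). It passed without control pool 2 (3.64, limma adjusted p = 0.0313).

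Nefm, which encodes the medium chain, had 3580, 1494, 4437, 2591 and 772 in homozygous pools 1 to 5 and 53.7, 2215, 90.04, 725 and 228 in control pools 1 to 5. Here control pool 2 lay above homozygous pools 2 and 5, and control pool 1 was 41.2-fold lower than control pool 2. The log2 difference was 2.94 ± 1.02 (SE; limma adjusted p = 0.199). Nefl and Nefm lie beside each other on chromosome 14 (68083863 to 68089095 and 68119545 to 68125004), with 30449 bases and no protein-coding gene of the table between them. Their order of the 5 homozygous pools differed only at the low end, where pool 2 was lowest for Nefl and pool 5 for Nefm.

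Prph encodes peripherin, the intermediate filament of peripheral neurons. Its brightest probe set had 1339, 507, 1055, 526 and 166 in homozygous pools 1 to 5 and 2.05, 537, 41.1, 278 and 64.5 in control pools 1 to 5. The value of control pool 1 was below the floor of 16 that was applied before the log2 scale, so the log2 difference of 2.65 ± 1.00 (SE; limma adjusted p = 0.239; exact permutation p = 0.0556) understates the gap to that pool. Only homozygous pools 1 and 3 lay above all controls. With a floor of 1 the difference was 3.25, and with a floor of 64 it was 2.13.

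Of the microtubule genes, Tubb3 (neuron-specific beta-tubulin, class III) had 1978, 869.7, 1675, 994 and 341 in homozygous pools 1 to 5 and 2.74, 707, 156, 287 and 149.7 in control pools 1 to 5. Homozygous pool 5 fell among the controls, below control pool 2, while the 4 others lay above every control. The log2 difference was 2.73 ± 0.95 (SE; limma adjusted p = 0.201; exact permutation p = 0.0159). Control pool 1 was again under the floor.

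Stmn2, a stathmin of growth cones that promotes the disassembly of microtubules, had 2154, 939, 2046, 1126 and 341 in homozygous pools 1 to 5 and 57.4, 625, 158, 352 and 116 in control pools 1 to 5. As for Tubb3, only homozygous pool 5 overlapped the controls. The log2 difference was 2.55 ± 0.73 (SE; limma adjusted p = 0.129; exact permutation p = 0.0238).

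Mapt encodes tau, which binds and stabilizes axonal microtubules. It had 561, 264, 431, 234 and 166 in homozygous pools 1 to 5 and 139.6, 245, 113, 219 and 227 in control pools 1 to 5, so homozygous pools 4 and 5 lay within the control range. Its log2 difference of 0.74 ± 0.37 (SE) did not pass (limma adjusted p = 0.385; exact permutation p = 0.0952). Mapt was also the gene with the smallest spread among control pools, 2.16-fold from lowest to highest.

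Gap43 encodes a membrane protein of growth cones. Its intensities were 1378, 592, 1386, 630.1 and 446 in homozygous pools 1 to 5 and 87.4, 373, 97.1, 261 and 139.9 in control pools 1 to 5. All homozygous pools lay above all control pools, with homozygous pool 5 closest to control pool 2. The log2 difference was 2.28 ± 0.50 (SE), 4.87-fold, which missed the threshold (limma adjusted p = 0.0707; exact permutation p = 0.00794). It passed without control pool 2 (limma adjusted p = 0.036).

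Elavl4 (HuD), a neuronal RNA-binding protein that stabilizes messages such as that of Gap43, had 834, 486, 1182, 716 and 507 in homozygous pools 1 to 5 and 389.8, 825, 282, 370.5 and 271 in control pools 1 to 5. Control pool 2 exceeded 3 of the 5 homozygous pools, and the log2 difference was 0.85 ± 0.35 (SE; limma adjusted p = 0.289; exact permutation p = 0.0476).

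Uchl1 (PGP9.5), a ubiquitin hydrolase abundant in neurons, had 1052, 418, 486, 364 and 99.2 in homozygous pools 1 to 5 and 40.02, 315, 254, 309 and 366 in control pools 1 to 5. Apart from control pool 1 the control pools were close to each other, and control pool 5 was the highest of them, unlike for the other 9 genes. Homozygous pool 5 lay below 4 of the 5 controls. The log2 difference was 0.88 ± 0.77 (SE; limma adjusted p = 0.648; exact permutation p = 0.31).

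The second probe sets of a gene are not independent samples, but they show whether its parts differ alike. Over all 45037 probe sets 0 of the 22 passed in limma (lowest adjusted p 0.0781, the brightest probe set of Ina), while 11 had an unadjusted limma p under 0.05; 0.111% of all probe sets rose (0.231% passed in either direction) and 7.38% were higher at an unadjusted p under 0.05. Of the 22 probe sets 3 had groups that did not overlap, against 1.78% of all probe sets higher in this way. The 3 probe sets of Ina differed by 3.33, 2.87 and 2.06 on the log2 scale and the 2 of Nefl by 2.98 and 2.86. The second probe set of Stmn2 differed by 1.54, and on it homozygous pool 5 (77.0) lay below every control pool, of which the lowest was 79.9. The 3 probe sets of Elavl4 differed by 0.55 to 0.85. The 4 of Mapt differed by 0.74, 0.53, 0.03 and -0.04, the third being under the floor on 9 of 10 arrays. The 3 dimmer probe sets of Prph did not exceed 67.3 on any array, and 1 of them was under the floor on all 10, so the difference of Prph rests on 1 probe set.

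**Figure D2:**
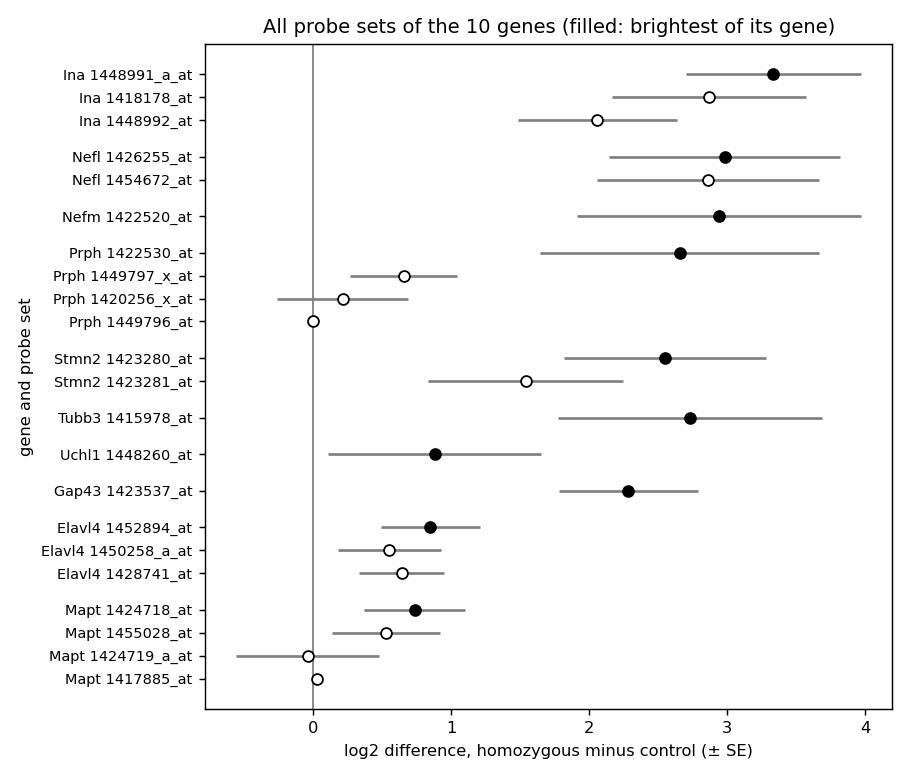
Log2 difference between homozygous and control pools (horizontal axis, with standard error) for each of the 22 probe sets of the 10 genes (vertical axis), the brightest of each gene filled. Ina and Nefl differ by 2.06 or more on all of their probe sets, whereas the differences of Prph and Mapt range from near 0 to 2.65 and 0.74.

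The order of the pools was shared by most of the 10 genes. Control pool 2 was the highest control for 9 of 10 genes, and control pools 1 and 3 were the 2 lowest controls for 7. In the homozygous group pool 1 or pool 3 was the highest for 5 genes each, and pool 5 was the lowest for 7. The mean log2 value over the 10 genes was 10.70, 9.54, 10.69, 9.83 and 8.81 in homozygous pools 1 to 5 and 6.08, 9.45, 6.97, 8.55 and 7.55 in control pools 1 to 5. Homozygous pool 5 thus lay below control pool 2 in this mean, and it did so for 7 of the 10 genes, homozygous pool 2 for 4 and homozygous pool 4 for 3. The median control SD over the 10 genes was 1.36 on the log2 scale, against 0.29 over all genes, and the median homozygous SD was 0.87, against 0.34.

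Single pools decided which of the 10 genes passed. Without control pool 2, 3 genes passed (Ina, Nefl and Gap43; 1.53% of all genes rose), and without any 1 of the other 9 pools none did. With array weights, which give less weight to arrays that deviate, 4 passed (Ina, Gap43, Stmn2 and Tubb3; 3.26% of all genes rose). Without control pools 1 and 3 together none passed (0.0165% of all genes rose), and the log2 difference fell to 2.48 for Ina, 1.89 for Nefl, 1.73 for Gap43, 1.598 for Nefm and 0.20 for Uchl1; this fit was chosen after seeing the data. All 10 genes kept a positive difference in every fit run.

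**Figure D3:**
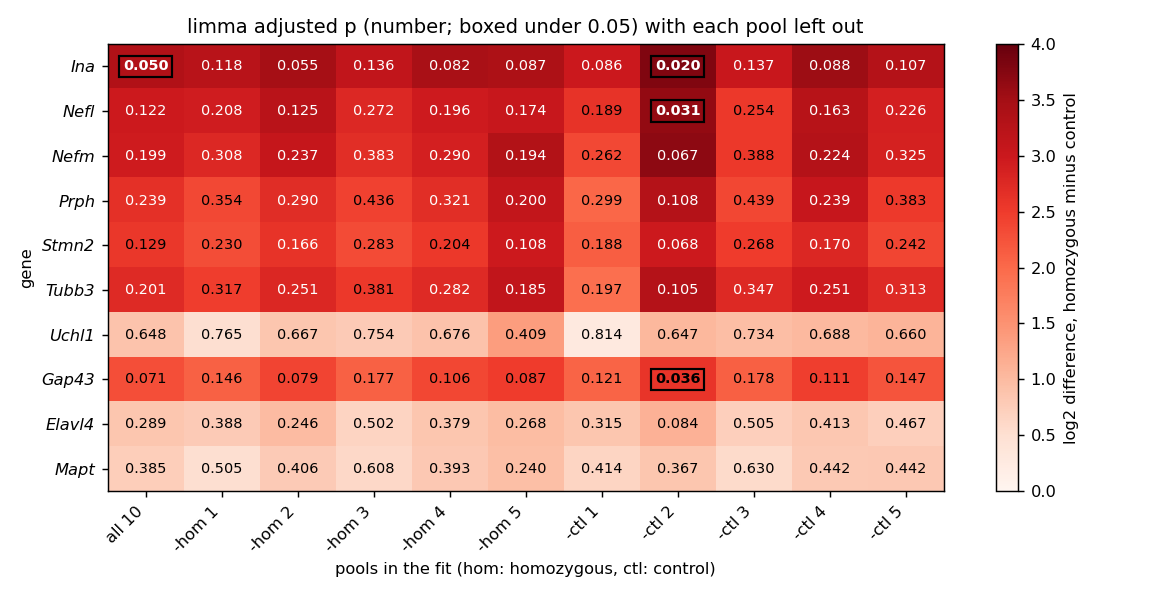
Limma adjusted p (number in each cell, boxed where under 0.05) of the 10 genes (rows) in the fit with all pools and with each pool left out (columns), with the log2 difference as colour. Ina is boxed with all pools, at 0.04999, and without control pool 2, where Nefl (0.0313) and Gap43 (0.036) are boxed too.

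The pools also differed in an RNA integrity measure and in Xist, an RNA made from the silenced X in female cells, and the part of either in the differences was not tested beyond the fits given here. The array's actin control, read near the 3′ end over mid-transcript, gives a ratio that rises with RNA degradation; it stood at 97.7 for homozygous pool 5, at 94.8 for control pool 1 and between 9.87 and 33.1 for the remaining 8. These 2 pools were the lowest of their group for 7 genes each. Without both, the log2 differences were 3.05 for Ina, 2.65 for Nefl, 2.31 for Tubb3, 2.27 for Gap43, 0.97 for Elavl4 and 0.78 for Uchl1, and none of the 10 passed (limma adjusted p from 0.112 to 0.272; 0.0660% of all genes rose). Xist was high in homozygous pools 3, 4 and 5 (13.75 to 14.27 on the log2 scale) and at most 6.07 in the other 7. Without those 3 pools the log2 difference was 3.22 for Ina and 2.59 for Nefl, and none of the 10 passed (0.137% of all genes rose). Wnt9b itself differed by -0.23 ± 0.36 (SE; limma adjusted p = 0.803).

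Other genes of the neuronal cytoskeleton and of axon growth, 35 in all and all measured, were higher in homozygous pools in 34 cases, with a median log2 difference of 0.85 against 0.00 over all genes. Of these 2 rose, against 0.539% of all genes, 0 fell and 33 did not pass. At an unadjusted limma p under 0.05, 23 of the 35 were higher, against 9.83% of all genes, and 1, Rufy3, was lower (-0.21 ± 0.09). Elavl2, a relative of Elavl4, rose by 2.23 ± 0.41 on the log2 scale (SE; limma adjusted p = 0.0477), from 9.14 ± 0.88 to 11.37 ± 0.43 (SD, n = 5). Celf4, another neuronal RNA-binding protein, rose by 1.75 ± 0.30 (SE; limma adjusted p = 0.0451). The beta-tubulin gene Tubb2a differed by 0.74 ± 0.16 (limma adjusted p = 0.0633) and the microtubule-stabilizing gene Map6 by 2.20 ± 0.50 (limma adjusted p = 0.0753). The largest difference, named after its values were seen, was that of the stathmin gene Stmn3, at 3.96 ± 0.98 (limma adjusted p = 0.0917). Groups did not overlap for 5 of the 35, against 2.61% of all genes. The heavy neurofilament chain gene Nefh differed by 0.64 ± 0.42, less than the light and medium chain genes, at a control mean of 6.57 (log2). Without control pool 2, 9 of the 35 rose, and without any other single pool at most 1 did.

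**Figure D4:**
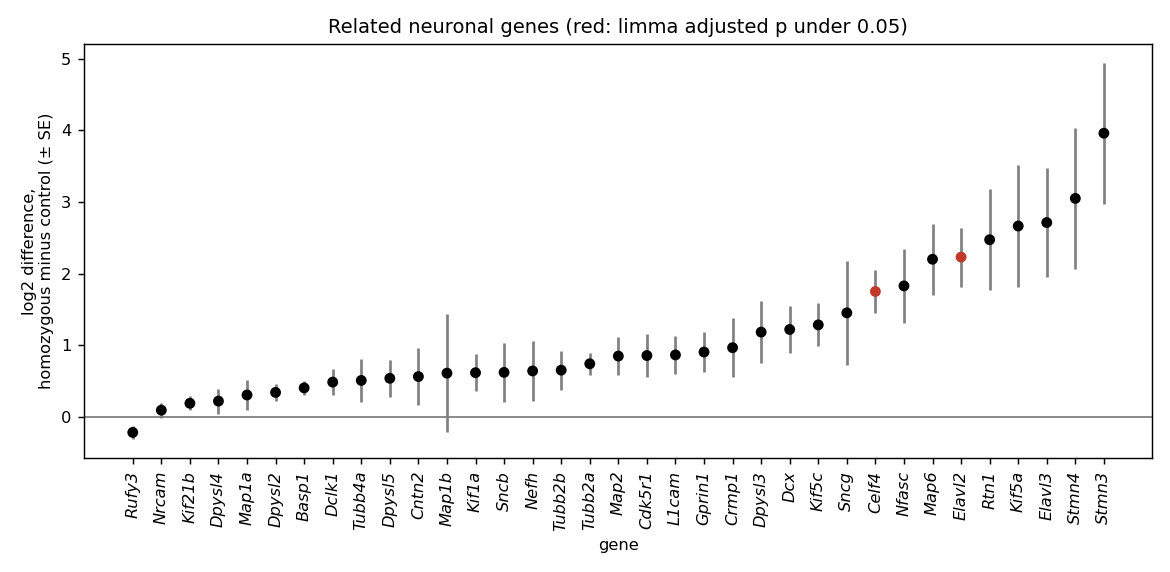
Log2 difference between homozygous and control pools (vertical axis, with standard error) for the 35 related neuronal genes, ordered by size, with those past the threshold in red. All but Rufy3 lie above 0, and Celf4 and Elavl2 are in red.

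Cytoskeletal genes that are not particular to neurons had no common direction. Of 15 measured genes of that list, such as those of vimentin, lamins, keratins and general tubulins, 8 were higher and 7 were lower, with a median of 0.02. None passed in limma. At an unadjusted limma p under 0.05, 2 were higher, against 9.83% of all genes, and 1, Elavl1, was lower. The groups of Elavl1 did not overlap, against 2.10% of all genes that were lower in this way. The exact permutation test cannot separate genes after adjustment here, since its lowest adjusted p over all 18193 genes was 0.168. The smallest p-values were those of Lmna (0.89 ± 0.25, limma adjusted p = 0.12) and Elavl1 (-0.26 ± 0.07, limma adjusted p = 0.122), the widely expressed relative of Elavl4. Tubb5 and Stmn1, general counterparts of Tubb3 and Stmn2, differed by 0.02 ± 0.13 and 0.17 ± 0.11. Whether the neuronal genes differed more than these was not tested.

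Markers of cell types that could bring these transcripts into the tissue were read in the same pools. Of 12 measured sympathetic and chromaffin genes 11 were higher and none passed in limma. At an unadjusted limma p under 0.05, 10 were higher, against 9.83% of all genes. The median log2 difference was 2.21, with Phox2a at 3.07 ± 0.61 (limma adjusted p = 0.0558). Groups did not overlap for 4 of the 12 (Phox2a, Th, Dbh and Hand2), against 2.61% of all genes. Their summed intensity was 8905 to 22822 in homozygous and 1609 to 6306 in control pools. The mean log2 value of the list did not overlap between the groups, at 8.66 to 9.90 in homozygous and 6.04 to 8.18 in control pools. It was lowest in control pools 1 and 3 (6.04 and 6.38), as for the 10 genes. In control pool 2 (8.18) it was close to that in control pool 5 (8.005), whereas the mean of the 10 genes differed between these pools (9.45 and 7.55). The list's homozygous mean was highest in pools 3 and 1 (9.90 and 9.72), as for the 10 genes, and lowest in pool 4 (8.66). Schwann and satellite glia genes summed to 3142 to 5710 in homozygous and 1719 to 4722 in control pools. Of these 6 of 7 were higher and the median was 0.95. None passed in limma, and 3 were higher at an unadjusted p under 0.05. Their mean log2 value was highest among controls in control pool 2 (8.50) and lowest in control pools 1 and 3 (6.87 and 6.54), as for the 10 genes. Among homozygous pools it was highest in pools 3 and 1 (8.90 and 8.52) and lowest in pool 4 (8.06).

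Markers of sensory neurons were dim, with sums of 704 to 1210 in homozygous and 444 to 882 in control pools. Of 8 measured genes 7 were higher, with a median difference of 0.37, and Scn10a was at the floor on 5 of 10 arrays. Of the 8 spinal cord markers 3 were higher, and Olig2 and Mnx1 were at the floor on all 10 arrays. Their median difference was 0.00, with sums of 204 to 1198 in homozygous and 121 to 1067 in control pools. The brightest of them was Lhx9, a homeobox gene that is also active in the embryonic gonad, at 62.3 to 1109 in homozygous and 10.8 to 943 in control pools; its log2 difference was 2.07 ± 1.34 (SE; limma adjusted p = 0.515). Parasympathetic and enteric neuron markers summed to 1023 to 2024 in homozygous and 1507 to 2554 in control pools. Of 7 genes 6 were higher, with a median of 0.21, and Slc18a3 was at the floor on 9 arrays. None of the markers in these 3 lists passed. At an unadjusted limma p under 0.05, 2, 0 and 1 of them were higher, in the order sensory, spinal cord, parasympathetic and enteric, against 9.83% of all genes. Hoxb5 of the last list was lower at this level (-0.61). It had the highest mean log2 value of that list in both groups, so the list's sums lean on it. Its intensities were 541 to 984 in homozygous and 956 to 1942 in control pools. Smooth muscle genes were higher in 8 of 8 cases (median 1.46), with sums of 17775 to 55497 in homozygous and 12316 to 34092 in control pools. Skeletal muscle genes were higher in 10 of 10 (median 2.03), with sums of 6331 to 48426 and 595 to 50798. None of either list passed in limma, and 5 smooth and 0 skeletal muscle genes had an unadjusted p under 0.05. The smooth muscle mean log2 value was highest among controls in control pool 2 (10.44) and lowest in control pools 1 and 5 (8.30 and 8.55). Among homozygous pools it was highest in pools 1 and 3 (11.69 and 10.83) and lowest in pool 2 (9.23). For skeletal muscle the highest control was control pool 4 (11.53), and control pools 1 and 3 were lowest (5.38 and 5.48), as for the 10 genes. Its homozygous mean was highest in pools 1 and 3 (11.28 and 10.82), with pool 2 at 10.79. It was lowest in homozygous pool 5 (8.23), as for the 10 genes.

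Adrenal cortex genes were higher in 8 of 8 cases (median 2.02; sums of 4203 to 41706 in homozygous and 296 to 22439 in control pools) and none passed. In control pool 2, the highest control for 9 of the 10 neuronal genes, their mean log2 value was 4.98, against 4.93 in control pool 1 and 8.38 to 10.50 in the other controls. In homozygous pool 1, highest for 5 of the 10 neuronal genes, it was 7.96, the lowest of its group. In homozygous pool 3, highest for the other 5, it was 10.97, and in homozygous pools 2, 4 and 5 it was 11.13, 8.54 and 9.61. Except for these values, the part of the co-dissected tissues in the differences of the 10 genes was not tested.

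**Figure D5:**
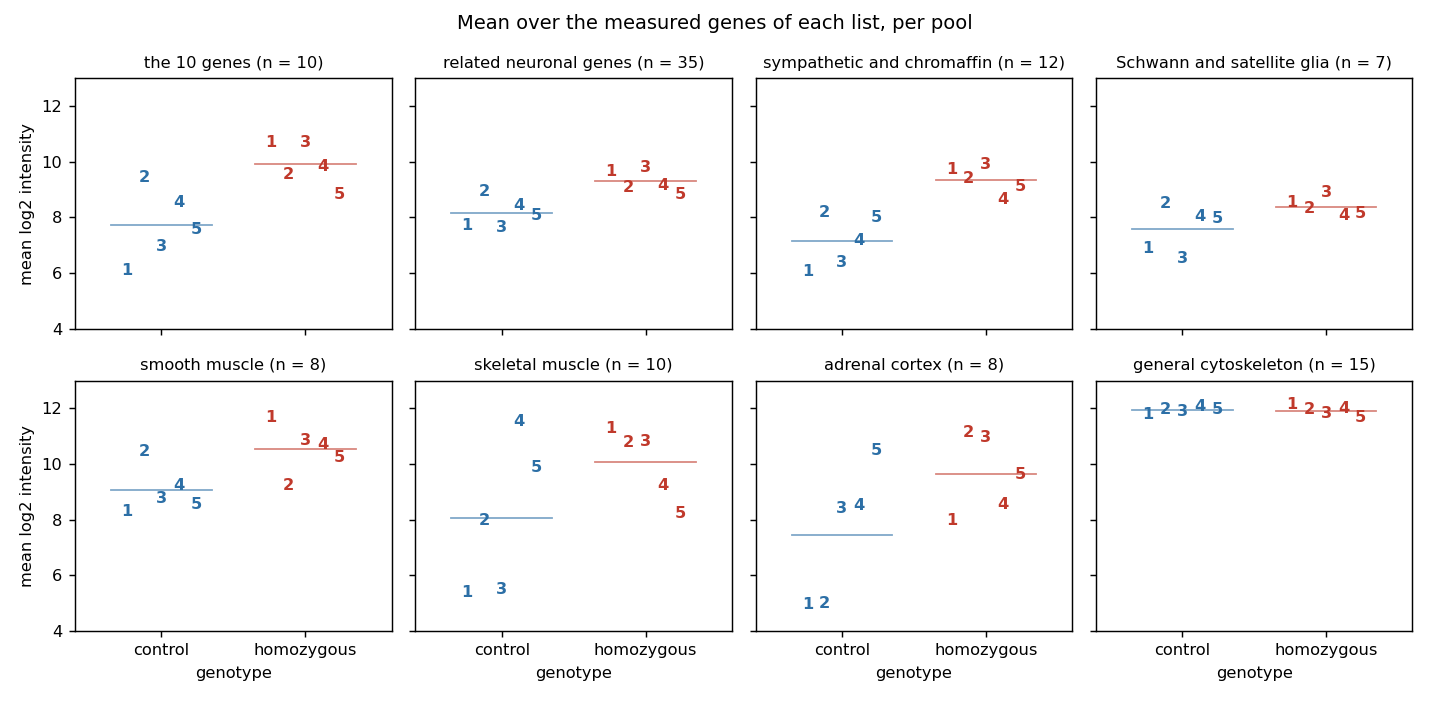
Mean log2 intensity over the measured genes of 8 lists (one panel each, n being the number of genes) in every pool, with the pool's number as the symbol, control in blue and homozygous in red; lines are group means. Control pool 2 is the highest control in the panel of the 10 genes (9.45) and among the lowest in the adrenal cortex panel (4.98).

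The 10 genes were also alike within genotypes. After each genotype's mean was removed, the Pearson correlation of 1 gene with the mean of the other 9 over the 10 pools was highest for Prph (0.99), Nefm (0.98), Gap43 (0.96) and Stmn2 (0.95) and lowest for Mapt (0.77), Uchl1 (0.71) and Elavl4 (0.70). Among all other genes, those most like the mean of the 10 by this measure were Ednrb (0.98), Snhg11 (0.98), Dpysl3 (0.97), Ap3b2 (0.97), Soga3 (0.96), Fgf13 (0.96), Acp5 (0.96), Hspb8 (0.96), Chrna3 (0.95) and Snap25 (0.95). They include Snap25, a protein of synaptic vesicle fusion, Chrna3, a nicotinic receptor subunit of autonomic ganglia, and Dpysl3, a growth cone protein. Between the genotypes Ednrb, an endothelin receptor of neural crest cells among others, differed by -0.08 on the log2 scale and Acp5 by -0.56. The others of these most alike genes were higher in homozygous pools, from 0.81 for Fgf13 to 3.82 for Snap25. Likeness within genotypes thus went with differences of unlike size between them, most of them positive. These correlations describe pools that share the array, its RNA integrity and its dissection, and carry no test.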

How the data were processed

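Linear intensities, 1 per probe set and array, were deposited; how the authors summarized probes into them is not given in the sources used here. Each array had a mean of 500 once 2% of its values were trimmed from either end, as global scaling leaves it, so a change of total RNA is not measured. Control pools had 22.2% to 23.0% and homozygous pools 19.9% to 21.1% of probe sets at or under 16, so dim genes carry a difference between the groups' arrays. Titles of homozygous pools 1 to 4 end in CHP and no control title does; whether those arrays were handled apart is not given. The series' design text describes kidney mesenchyme of another allele and stage, so groups follow the sample labels. The labels speak of distinct pools of RNA, and p-values measure the spread between pools.

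Of 45101 probe sets, 64 are array controls and were dropped, 34945 had 1 symbol in the platform annotation, 932 several and 9160 none here. Values under 16 were set to 16 and taken to log2, which understates changes of dim genes. Each of 18193 genes was represented by its brightest probe set over all arrays. Genotypes were compared in limma 3.58.1 (R 4.3.3; lmFit, eBayes with an intensity trend, two-sided) over all genes and, separately, over all 45037 probe sets, with Benjamini-Hochberg adjusted p under 0.05. On simulated data for this comparison (18193 genes, 100 changed at each size), 52% of genes changed by 1 on the log2 scale and 83% of those changed by 2 were recovered, and 15 of 150 calls were false. The changed genes were drawn from all genes, whose median control SD was 0.29, against 1.36 for the 10 genes. Recovery of genes with so wide a spread was not computed. An exact permutation test over pools (two-sided) was run for single genes.

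The 10 genes, the related list, the marker lists and the fits without named pools were chosen with earlier results of these data known. Genes outside the 10 were named by rule: those of the related list past the threshold or, if fewer than 4, the 4 with the smallest p, the 2 general cytoskeleton genes with the smallest p, the 10 genes most alike within genotypes, and the genes between Wnt9b and Mapt; exceptions are examples chosen after their values were seen. Alternatives concerned the probe set per gene, dim-gene filters, the floor, normalization, the replicate number as a block, the variance model, array weights, an exact test and the pools in the fit. Positions were read from the GRCm38.p6 table of genes, and promoters start 250 bases before its RefSeq starts.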

Additional observations from a re-analysis of the deposited data

Results flagged for a closer look

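Uchl1 in control pool 1 (intensity 40.02) stood apart from the other 4 control pools (254 to 366): the gap to the next pool made up 0.834 of the whole control range on the log2 scale, above Dixon's critical value of 0.71 for 5 samples. Control pool 1 also had the high actin ratio of 94.8. Of 20 groups examined, 10 genes in 2 genotypes, this was the 1 that stood out in this way, and chance alone gives about 1 in 20. Without control pool 1 the log2 difference of Uchl1 was 0.29, against 0.88 with all pools, and neither passed (limma adjusted p = 0.814 and 0.648).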

How the results depend on the processing

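Of the 10 genes 1 passed with all pools; over single pools left out the number ran from 0 to 3, for the 22 probe sets from 0 to 1 (0 with all pools), for the 35 related genes from 0 to 9 (2 with all pools) and for all genes from 3 to 414 (176 with all pools). In that order for the 10 genes, the probe sets, the related genes and all genes, the numbers were 2, 2, 6 and 283 with the dimmest 40% left out, 1, 2, 2 and 108 with the dimmest 60% left out, 2, 1, 4 and 240 with a floor of 1, 0, 0, 0 and 89 with a floor of 64, 2, 2, 4 and 173 with array medians subtracted, and 4, 3, 11 and 951 with array weights. They were 0, 0, 0 and 23 without both pools of high actin ratio, 0, 0, 0 and 28 without the 3 pools of high Xist, 0, 0, 0 and 0 by the exact permutation test, whose lowest adjusted p was 0.168 over genes and 0.241 over probe sets (7 of the 10 genes and 1653 of all genes higher at an unadjusted p under 0.05), and 0, 0, 0 and 7 without control pools 1 and 3, the last chosen after seeing the data. With the mean of a gene's probe sets they were 0 for the 10 genes, 2 for the related genes and 109 for all genes. With the replicate block they were 0, 0, 0 and 1; same-numbered pools deviated in opposite directions (correlations from -0.55 to -0.17), no pool correlated best with its own number, and the labels name no pairing, so the numbers do not pair the pools. Quantile normalization, no intensity trend and robust eBayes each left 1 of the 10 genes past the threshold. Ina passed in 9 of 25 alternatives, Gap43 in 5 of 24, Nefl, Stmn2 and Tubb3 in 1 each, and Nefm, Prph, Uchl1, Elavl4 and Mapt in none. With the dimmest 60% left out, 6 of the 10 genes were not tested. Of all genes 10916 and 7277 were tested with the dimmest 40% and 60% left out, and of the related genes 26 and 14. Of the 22 probe sets 18 and 16 were tested, and 1.35% and 1.15% of all probe sets in these fits passed. Of all 45037 probe sets 0.437% passed with a floor of 1 and 0.164% with a floor of 64. With array medians subtracted 0.431% of them did, and with array weights 1.63%. The log2 difference of Prph ran from 0.88, with the mean of its probe sets, to 3.29, the widest range of the 10, and that of Uchl1 from 0.20 to 1.69. The number of arrays limits the precision, and probe sets near the floor carry little information.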

Other observations

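Mapt is the only 1 of the 10 genes on the chromosome of Wnt9b (chromosome 11, GRCm38.p6), starting 454136 bases beyond its end. Of 11 genes that the table places wholly between them, only Nsf, Arf2 and Crhr1 were measured here under their symbols. Wnt3, whose span overlaps the end of Wnt9b, was measured too. Nsf, a fusion protein of vesicle traffic, differed by -0.20 ± 0.11 on the log2 scale (SE), Arf2 by -0.43 ± 0.50 and Crhr1, a receptor for corticotropin-releasing hormone, by -0.39 ± 0.49, and none passed (limma adjusted p from 0.422 to 0.743). Wnt3 was at the floor in all homozygous pools. None of these 4 genes, Wnt3 included, was higher in homozygous pools, whereas Mapt differed by 0.74 ± 0.37, which did not pass either.

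Of 7 measured proximal tubule and podocyte genes 5 fell, against 0.429% of all genes (list median -1.45), and of 5 macrophage genes 2 rose, against 0.539% of all genes (list median 0.60). Those that fell were Lrp2, Cubn, Slc34a1, Hnf4a and Vil1, and those that rose were Adgre1 and Csf1r. None of the nephron progenitor and ureteric (8 genes, median -0.31), testis (5 genes, median 0.18) or endothelial (5 genes, median -0.09) genes passed in limma. In that order 3, 1 and 0 of them had an unadjusted p under 0.05, all of these lower in homozygous pools. The share of all genes lower at this level was not computed. The groups of 1 of the 8 nephron progenitor and ureteric genes, Calb1 (-1.15), did not overlap, against 2.10% of all genes lower in this way. The pool means of the proximal tubule and podocyte list did not overlap between the groups, 7.77 to 8.55 in homozygous and 9.25 to 9.74 in control pools (log2).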
